A study of Mus musculus with 12 samples.

Results

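The insulin-like growth factor (IGF) genes were taken as the probes whose gene symbol was Igf1, Igf2, Igf1r, Igf2r or Igfbp2 to Igfbp7, in every treatment and in both batches. These 10 genes, of 34509 symbols on the array, had 21 of the 46632 probes. All arrays carried RNA from femoral head cartilage explants of 21-day-old TS-4/5∆cat mice, in which the catalytic domains of both ADAMTS-4 and ADAMTS-5 are deleted, so the untreated controls carry these deletions as well and no wildtype cartilage was analysed here. The explants were left untreated, treated with 10 ng/mL IL-1α or treated with 10 µM retinoic acid for 3 days, with 4 arrays per treatment. For each treatment, 2 arrays came from mice of the Donut line, which made up batch 1, and 2 from mice of the Gertrude line, which made up batch 2. Line and batch therefore cannot be told apart. The labels describe 4 hips in each well, kept for 24 h in medium with 10% serum before treatment, whereas the methods describe serum-free culture of 3 unpooled mice per treatment and do not say which arrays they gave, so p-values measure the spread between arrays.

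IGF-1 and IGF-2 are secreted peptides that act on cells through the receptor encoded by Igf1r, a tyrosine kinase that signals through insulin receptor substrates, PI3 kinase and AKT. In cartilage, IGF-1 is known as a stimulus for proteoglycan synthesis and chondrocyte survival. The Igf2r receptor takes up IGF-2 and carries it to lysosomes, and the secreted binding proteins hold IGFs in the matrix and body fluids, keep them from the receptor or deliver them to it, and are themselves cut by proteases.

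Probe intensities were background-corrected and quantile-normalized with the neqc function of limma, and the values below are log2 intensities. Probes detected on 4 or more of the 12 arrays, at a detection p under 0.05, entered the tests. These were 16 of the 21 probes, with at least 1 for each of the 10 genes, while 14317 of all 34509 symbols had such a probe. The probes not kept were 4 of 5 for Igfbp7, detected on no array, and 1 of 3 for Igf1r, detected on 1 array. Where a gene had several kept probes it was counted by its brightest, and 9 of the 10 genes were detected on all 12 arrays by that probe. Levels were not compared between probes. Quantile normalization gave every array the same highest value, 14.24, and Igf2 and Igfbp7 reached 13.39 and 13.40. Whether signals this bright were compressed was not tested, so differences between their brightest arrays may not be exact sizes.

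The arrays had a median raw intensity of 34.3 to 63.3, and 13786 to 19485 detected probes. The untreated replicate 2 of batch 2 had the most detected probes, 19485, while the other arrays of its batch had 16732 to 17212. Cyp26b1, which encodes an enzyme that degrades retinoic acid, was higher with retinoic acid than untreated by 3.94, and Nos2, the inducible nitric oxide synthase, was detected on the 4 IL-1α arrays and no others, at least 14.1-fold above the untreated arrays. Rarb and Saa3 were also set as treatment checks. The fitted rise of Rarb with retinoic acid was 1.79 in batch 1 and 4.05 in batch 2, but it was detected on only 5 arrays, so these are not exact sizes. Saa3 did not pass with IL-1α (0.79, adjusted p = 0.373 from limma) and fell by 2.62 with retinoic acid, at -0.93 in batch 1 and -4.31 in batch 2. Its mean was 13.20 untreated and 13.99 with IL-1α, near the highest value of 14.24, and compression of such signals was not tested. Of 10 chondrocyte marker genes, 8 were kept and Matn3 was detected on no array. The summed linear intensity of the kept chondrocyte markers was 62420 to 73960 untreated, 35270 to 47070 with IL-1α and 10050 to 15320 with retinoic acid, and 8 of 8 were lower with retinoic acid and 6 of 8 with IL-1α than untreated. In bulk RNA, fewer cells of a type and less RNA per cell cannot be told apart, and the part of these shifts in the results below was not tested.

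Promoter sequences are shown for 4 genes whose levels moved most in the results below, Igfbp2 and Igfbp4 with retinoic acid, Igf1 in opposite directions with the 2 treatments, and Igfbp5 with IL-1α. Each is the 250 bases before the first annotated start in RefSeq (GRCm38.p6), written 5′ to 3′ along the gene's strand. All 10 genes matched entries, with 14 windows of 32851 in the table, since Igf2 has 4 starts and Igfbp2 has 2. Capitals mark the letters searched on both strands, which were 3 hexamers that retinoid receptors bind (AGGTCA, then GGGTCA, and last AGTTCA), the AP-1 site TGACTCA, the TATA box TATAAA, the GC box GGGCGG and the κB consensus by its name. The Igfbp2 window lies at chr1:72824230-72824479 on the plus strand, that of Igfbp4 at chr11:99040994-99041243 on the plus strand, that of Igf1 at chr10:87860861-87861110 on the plus strand and that of Igfbp5 at chr1:72874866-72875115 on the minus strand.
Igfbp2: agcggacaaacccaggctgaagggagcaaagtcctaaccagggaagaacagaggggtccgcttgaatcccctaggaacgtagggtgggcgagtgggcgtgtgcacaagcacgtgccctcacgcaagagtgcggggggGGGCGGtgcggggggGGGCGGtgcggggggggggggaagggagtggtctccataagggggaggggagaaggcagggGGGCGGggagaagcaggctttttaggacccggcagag
Igfbp4: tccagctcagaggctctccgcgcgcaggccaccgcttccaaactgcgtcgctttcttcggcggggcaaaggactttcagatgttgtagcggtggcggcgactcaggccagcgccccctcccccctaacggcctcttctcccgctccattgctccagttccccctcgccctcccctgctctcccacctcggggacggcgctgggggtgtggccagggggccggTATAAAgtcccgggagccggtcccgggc
Igf1: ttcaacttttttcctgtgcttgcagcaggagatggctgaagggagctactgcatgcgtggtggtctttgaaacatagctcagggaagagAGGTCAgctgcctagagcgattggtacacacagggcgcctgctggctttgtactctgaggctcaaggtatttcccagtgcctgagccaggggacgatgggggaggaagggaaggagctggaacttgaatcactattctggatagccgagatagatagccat
Igfbp5: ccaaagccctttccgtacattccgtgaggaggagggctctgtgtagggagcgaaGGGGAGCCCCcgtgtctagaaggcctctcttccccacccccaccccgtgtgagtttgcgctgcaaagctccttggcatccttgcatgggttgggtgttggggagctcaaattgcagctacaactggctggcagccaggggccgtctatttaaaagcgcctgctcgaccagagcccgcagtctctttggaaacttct

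The Igfbp2 window held 3 GC boxes, at 113, 98 and 37 bases before the start, and none of the 3 retinoid receptor hexamers. A GC box stood in 32.7% of all windows. In the Igfbp4 window, TATAAA began 28 bases before the start, and 12.4% of all windows held these letters. The Igf1 window held AGGTCA at 161 bases before the start, a hexamer found in 14% of all windows. GGGTCA stood in 11.6% and AGTTCA in 11.8% of all windows. Among the genes whose windows are not shown, Igf2, Igf1r and Igf2r also held AGGTCA, Igf2r and Igfbp6 held GGGTCA, and Igf2 held AGTTCA. The Igfbp5 window held a κB match, on the strand opposite to the gene and 196 bases before the start, and 3.9% of all windows held such a match. The full retinoic acid response elements of the DR5 and DR2 types, found in 0.0883% and 0.174% of all windows, were in none of the 14 windows of the 10 genes. TGACTCA, which stood in 4.46% of all windows, was in the later window of Igfbp2, and no searched letters were in the Igfbp3 window. In the order of protein-coding genes, Igfbp2 and Igfbp5 are neighbours on chromosome 1, and Igfbp3 lies beside Igfbp1 on chromosome 11. These letters are a description of the windows, and no binding was measured.

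The first question was how retinoic acid and IL-1α each moved the ligands, receptors and binding proteins. With retinoic acid, 4 of the 10 genes rose against untreated (Igf1, Igfbp2, Igfbp3 and Igfbp4) and 2 fell (Igf2 and Igf2r), where 18.6% of all 14317 genes were higher and 18.1% were lower at an adjusted p under 0.05 from limma. With IL-1α, Igf2r rose and 4 genes fell (Igf1, Igfbp3, Igfbp5 and Igfbp6), where 15.1% of all genes were higher and 15.0% were lower. Both comparisons use the same 4 untreated arrays, so they are not independent. Igfbp2 met the detection filter through the retinoic acid arrays alone. It is in the counts, here and below, of genes that were higher or did not overlap with retinoic acid. Igfbp2 is also in the medians given here and below, although its values are set against background or, with IL-1α against untreated, are background alone. The median log2 fold change of the 10 genes was 0.33 with retinoic acid and -0.35 with IL-1α, while over all genes it was 0.01 in each. The median size was 0.69 and 0.46, against 0.28 and 0.25 over all genes. With Igfbp2 left out, the middle log2 fold change with retinoic acid is that of Igfbp6, 0.24.

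Set directly against IL-1α, 7 of the 10 genes were higher with retinoic acid (Igf1 and Igfbp2 to Igfbp7), where 16.1% of all genes were higher, and Igf2r was lower, where 16.4% of all genes were lower. They included all 6 binding proteins. The median log2 fold change was 1.30, against -0.03 over all genes. With Igfbp2 left out, the middle value is that of Igfbp6, 0.92. The 4 retinoic acid arrays and the 4 IL-1α arrays did not overlap for 6 of the 10 genes, where 18.9% of all genes did not overlap. Against untreated, the arrays did not overlap for 3 of the 10 genes with retinoic acid and for 2 with IL-1α, where 18.0% and 14.3% of all genes did not overlap.

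**Figure D1:**
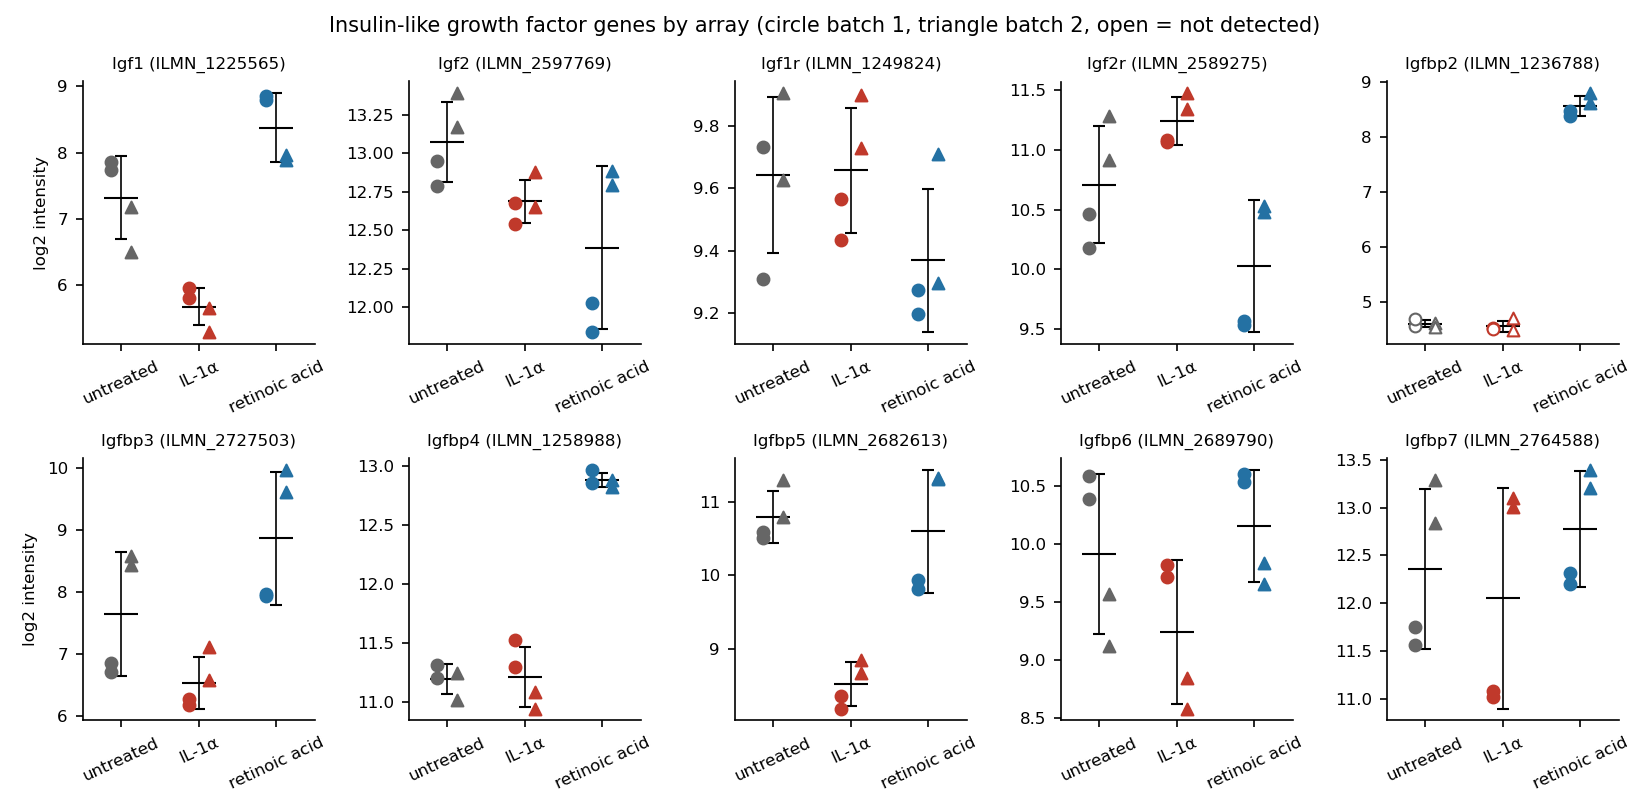
Log2 intensity (vertical axis) of the brightest kept probe of each of the 10 genes on the 12 arrays, by treatment (horizontal axis). Circles are batch 1, triangles are batch 2, open symbols are arrays on which the probe was not detected, and bars are the mean and SD of 4 arrays. Igfbp2 was detected on the 4 retinoic acid arrays alone, and the IL-1α arrays of Igfbp5, 8.18 to 8.85, lay below all others.

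Of the ligands, Igf1 moved in opposite directions. On the untreated arrays Igf1 (probe ILMN_1225565) had log2 intensities of 7.73 and 7.86 in batch 1 and 7.18 and 6.49 in batch 2. With IL-1α they were 5.94 and 5.81 in batch 1 and 5.28 and 5.64 in batch 2. With retinoic acid they were 8.85 and 8.80 in batch 1 and 7.89 and 7.96 in batch 2. All retinoic acid arrays lay above all untreated arrays, and all untreated arrays lay above all IL-1α arrays. Igf1 was 2.08-fold higher with retinoic acid than untreated (log2 fold change 1.06 ± 0.17 SE, adjusted p = 0.000363 from limma) and 3.13-fold lower with IL-1α (log2 fold change -1.65 ± 0.17 SE, adjusted p = 1.9e-05 from limma). Between retinoic acid and IL-1α the difference was 6.51-fold. Arrays of 2 treatments that do not overlap have a two-sided exact permutation p of 0.0286, the smallest that 4 arrays against 4 allow.

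The other Igf1 probes showed the same directions. Probe ILMN_2769884 was 6.66 to 6.85 untreated and 7.41 to 7.86 with retinoic acid, and was detected on no IL-1α array, so that untreated arrays were at least 2.88-fold and retinoic acid arrays at least 5.39-fold above IL-1α. For such bounds, the arrays without detection were given their lowest detected signal, or the probe's own signal where that was higher, and their mean was set below that of the detected group. The third probe, ILMN_2647594, was dim. It was detected on 2 untreated, 3 retinoic acid and no IL-1α arrays, and its log2 fold change with IL-1α was -0.33 (adjusted p = 0.129 from limma).

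Igf2, the ligand of fetal growth that is expressed from the paternal allele in mice, was bright on every array. Its probe (ILMN_2597769) had log2 intensities of 12.79, 12.95, 13.39 and 13.17 on the untreated arrays. With retinoic acid they were 11.84 and 12.03 in batch 1 and 12.79 and 12.88 in batch 2. With IL-1α they were 12.54, 12.67, 12.88 and 12.65. The retinoic acid arrays of batch 2 lay within the range of the untreated arrays of both batches, so the groups overlapped, but within each batch both retinoic acid arrays were below both untreated arrays. Igf2 fell by 0.69 ± 0.15 SE with retinoic acid (adjusted p = 0.00312 from limma; two-sided exact permutation p = 0.0857 over the 8 arrays without regard to batch). With IL-1α the log2 fold change was -0.39 ± 0.15 SE and missed the threshold (adjusted p = 0.0722 from limma). It passed with array weights (-0.53, adjusted p = 0.0194), with no background correction (adjusted p = 0.0468) and without retinoic acid replicate 2 of batch 2 (adjusted p = 0.0357). Without that array so did the difference between retinoic acid and IL-1α, -0.30 with all arrays (adjusted p = 0.158) and -0.46 without it (adjusted p = 0.0313), which also passed with median scaling (-0.41, adjusted p = 0.031).

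Of the receptors, Igf1r did not pass the test in any comparison, although with array weights it was lower with retinoic acid against IL-1α (-0.31, adjusted p = 0.0422 from limma). Its probe ILMN_1249824 was 9.31 to 9.90 untreated, 9.43 to 9.90 with IL-1α and 9.20 to 9.71 with retinoic acid, and these ranges overlapped. The 95% interval of its log2 fold change was -0.57 to 0.02 with retinoic acid and -0.28 to 0.31 with IL-1α. The other kept probe, ILMN_1239663, gave -0.06 and 0.05.

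Igf2r moved in opposite directions with the 2 treatments. Its probe (ILMN_2589275) had log2 intensities of 10.18 and 10.46 in batch 1 and 11.28 and 10.92 in batch 2 on the untreated arrays. With IL-1α they were 11.09 and 11.07 in batch 1 and 11.48 and 11.34 in batch 2. With retinoic acid they were 9.57 and 9.53 in batch 1 and 10.48 and 10.53 in batch 2. Within each batch the treatments kept this order, while untreated arrays overlapped those of either treatment across batches. Igf2r was lower with retinoic acid than untreated by 1.61-fold (adjusted p = 0.0027 from limma) and lower than with IL-1α by 2.32-fold (adjusted p = 3.05e-05), where the arrays did not overlap. The rise with IL-1α, 0.53 ± 0.15 SE (adjusted p = 0.0162), rested on single arrays. Its adjusted p was 0.0688 without untreated replicate 1 of batch 1, 0.0727 without IL-1α replicate 1 and 0.0674 without IL-1α replicate 2 of batch 1, and 0.0535 without untreated replicate 2 of batch 2. This rise was also lost with no detection filter, and with neither batch nor replicate number in the model.

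**Figure D2:**
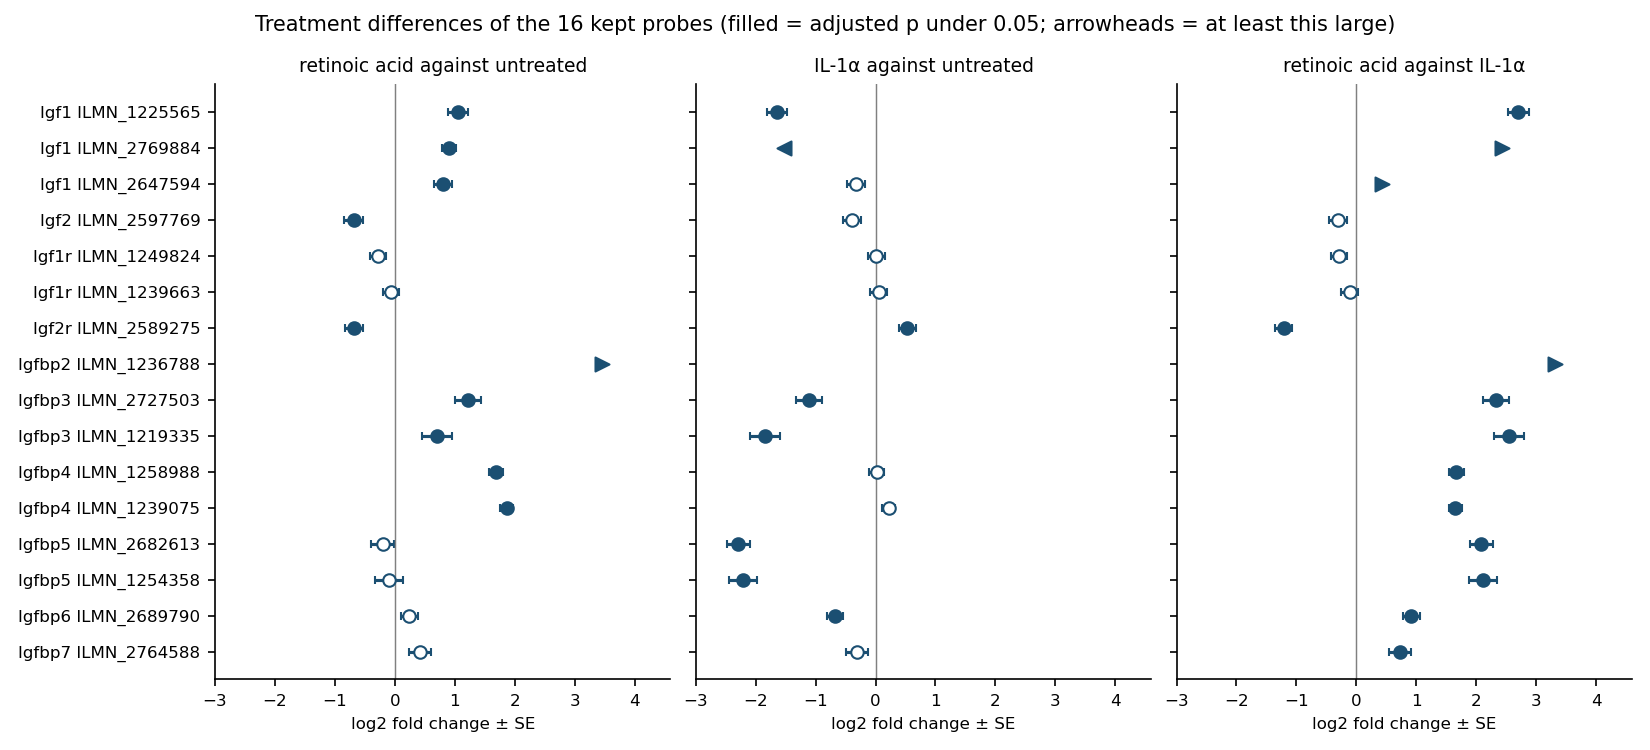
Log2 fold change with its SE (horizontal axis) of the 16 kept probes (vertical axis) for retinoic acid against untreated, IL-1α against untreated and retinoic acid against IL-1α, with filled points where the adjusted p from limma was under 0.05. Arrowheads mark lower bounds of size, where a probe was detected in only 1 of the 2 treatments, and Igfbp2 has no point for IL-1α against untreated, where it was detected in neither. Igfbp4 lies at 1.69 with retinoic acid and 0.02 with IL-1α, and the 2 probes of Igfbp5 lie at -2.29 and -2.21 with IL-1α.

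Among the binding proteins, the largest difference was that of Igfbp2, which binds IGF-2 with high affinity and is abundant in fetal tissues. Its only probe (ILMN_1236788) was detected on none of the 4 untreated and none of the 4 IL-1α arrays, with raw intensities of 29.9 to 54.8. With retinoic acid its log2 intensity was 8.39 and 8.48 in batch 1 and 8.62 and 8.80 in batch 2, with raw intensities of 221.4 to 798.5. Igfbp2 was thus at least 10.9-fold higher with retinoic acid than untreated and at least 9.98-fold above the IL-1α arrays. It met the detection filter through the retinoic acid arrays alone. Its adjusted p from limma (1.49e-10 and 1.12e-10) sets these arrays against background values, whose spread is not that of an expressed gene. No level can be given for untreated or IL-1α cartilage, where the probe was not above background.

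Igfbp4, which chiefly restrains IGF action and is cut by the protease PAPP-A, was bright in all cultures and rose with retinoic acid. Its probe (ILMN_1258988) had log2 intensities of 11.20, 11.31, 11.01 and 11.25 untreated, and 11.29, 11.52, 11.08 and 10.94 with IL-1α. With retinoic acid they were 12.86, 12.97, 12.88 and 12.82. All 4 retinoic acid arrays lay above the other 8, and untreated and IL-1α arrays overlapped. The rise was 3.23-fold (log2 fold change 1.69 ± 0.12 SE, adjusted p = 2.34e-07 from limma), and 3.66-fold by the other probe, ILMN_1239075. With IL-1α the log2 fold change was 0.02, with a 95% interval of -0.24 to 0.28. The rise was much alike in the batches, 1.66 in batch 1 and 1.72 in batch 2.

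Igfbp3, the main carrier of IGFs in serum and a product of chondrocytes, had the order of Igf1. Its brighter probe (ILMN_2727503) was 6.85 and 6.71 in batch 1 and 8.58 and 8.44 in batch 2 on the untreated arrays. With IL-1α it was 6.27 and 6.18 in batch 1 and 7.10 and 6.58 in batch 2. With retinoic acid it was 7.97 and 7.92 in batch 1 and 9.96 and 9.60 in batch 2. Batch 2 was higher in every treatment, and within each batch retinoic acid was highest and IL-1α lowest on this probe, although the treatments overlapped across batches except for retinoic acid against IL-1α. Igfbp3 was 2.33-fold higher with retinoic acid (adjusted p = 0.000716 from limma) and 2.16-fold lower with IL-1α (adjusted p = 0.0022) than untreated, and the retinoic acid arrays were 5.03-fold above the IL-1α arrays. The other probe, ILMN_1219335, gave a smaller rise with retinoic acid, 1.62-fold (adjusted p = 0.045), which was 0.24 on the log2 scale in batch 1 and 1.15 in batch 2, and also fell with IL-1α (adjusted p = 0.000145), but it was not detected on the 2 IL-1α arrays of batch 1, so the size of that fall is not given.

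Igfbp5, a binding protein that attaches to extracellular matrix, had the largest fall with IL-1α. Its brighter probe (ILMN_2682613) was 10.59, 10.52, 10.79 and 11.31 untreated. With IL-1α it was 8.18, 8.36, 8.67 and 8.85. With retinoic acid it was 9.94 and 9.81 in batch 1 and 11.33 and 11.32 in batch 2. All IL-1α arrays lay below the other 8. The fall with IL-1α was 4.88-fold (log2 fold change -2.29 ± 0.20 SE, adjusted p = 3.15e-06 from limma), and 4.62-fold by the other probe, ILMN_1254358. The fall was -2.28 in batch 1 and -2.29 in batch 2 by the brighter probe. With retinoic acid the change did not pass the test over both batches (-0.20, adjusted p = 0.46), and its direction differed between them, as described below.

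Igfbp6, which prefers IGF-2, fell with IL-1α. Its probe (ILMN_2689790) was 10.39 and 10.59 in batch 1 and 9.57 and 9.12 in batch 2 untreated, and 9.72 and 9.82 in batch 1 and 8.58 and 8.84 in batch 2 with IL-1α. With retinoic acid it was 10.61 and 10.54 in batch 1 and 9.66 and 9.83 in batch 2. Within each batch both IL-1α arrays were below all arrays of the other treatments, while the treatments overlapped across batches. The log2 fold change was -0.67 with IL-1α (adjusted p = 0.00288 from limma) and 0.24 with retinoic acid (adjusted p = 0.195), and retinoic acid was higher than IL-1α by 0.92 (adjusted p = 0.000204).

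Igfbp7, a related protein of low affinity for IGFs that is known from vessel walls, had 1 kept probe (ILMN_2764588). It was 11.56 and 11.75 in batch 1 and 13.29 and 12.84 in batch 2 untreated. With IL-1α it was 11.02 and 11.08 in batch 1 and 13.01 and 13.10 in batch 2, and with retinoic acid 12.32 and 12.20 in batch 1 and 13.40 and 13.21 in batch 2. In batch 1 the order was retinoic acid, untreated and IL-1α, while in batch 2 the untreated arrays spanned both IL-1α arrays and retinoic acid replicate 2. Against untreated, neither retinoic acid (0.42, adjusted p = 0.0905 from limma) nor IL-1α (-0.31, adjusted p = 0.22) passed, but without IL-1α replicate 2 of batch 2 both did (adjusted p = 0.0447 and 0.0405). Retinoic acid against IL-1α passed (0.73, adjusted p = 0.00766), but not with median scaling of the arrays instead (0.53, adjusted p = 0.0964). It also did not pass with no detection filter, or with neither batch nor replicate number in the model.

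A further question was whether the treatments acted alike in the 2 batches. The level itself differed between the batches for 8 of the 10 genes by their brightest probe, where 76.1% of all genes differed. Igfbp4 did not pass by its brightest probe (-0.19, adjusted p = 0.079 from limma). By its other probe, ILMN_1239075, it was lower in batch 2 (-0.41, adjusted p = 0.000595 from limma). Igfbp2 was at background on 8 of the 12 arrays, so its levels could hardly be compared between batches. Igfbp7, Igfbp3, Igfbp5, Igf2r, Igf2 and Igf1r were higher in batch 2, by 1.49, 1.39, 0.81, 0.69, 0.49 and 0.28, and Igfbp6 and Igf1 were lower, by -1.01 and -0.76. By the other kept Igf1r probe, ILMN_1239663, the level did not pass (-0.04, adjusted p = 0.747 from limma). The other Igfbp5 probe was also higher in batch 2, by 1.25. The other Igf1 probes were undetected on all IL-1α arrays, so no difference over all arrays is given for them. Untreated, ILMN_2769884 averaged 6.80 in batch 1 and 6.75 in batch 2, where the brighter probe averaged 7.80 and 6.83. With retinoic acid it averaged 7.85 and 7.52, and the brighter probe 8.82 and 7.92. The dim ILMN_2647594 went the other way and was detected untreated in batch 2 only. The probes thus did not give the Igf1 batch difference alike. The count of 8 genes was 7 to 9 as single arrays were left out.

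The effect of retinoic acid against untreated differed between the batches for Igfbp5 alone of the 10 genes, where 2.70% of all genes differed. Igfbp5 was -0.68 in batch 1 and 0.28 in batch 2, a difference of 0.96 ± 0.24 SE (adjusted p = 0.0453 from limma). By the other probe it was -0.81 and 0.62, a difference of 1.43 ± 0.23 SE (adjusted p = 0.00289). In batch 1 both retinoic acid arrays were below both untreated arrays, and in batch 2 both were above, by the brighter probe only just (11.33 and 11.32 against 11.31 on untreated replicate 2). The effect of IL-1α differed for Igfbp3 alone, where 4.57% of all genes differed, with -0.56 in batch 1 and -1.67 in batch 2 (adjusted p = 0.0225). For the other Igfbp3 probe this difference could not be measured, since it was not detected on the IL-1α arrays of batch 1. Its untreated arrays of batch 1 averaged 6.61, and the lowest detected signals of those IL-1α arrays were 5.48 and 5.45. The fall in batch 1 was therefore larger by that probe than the -0.56 of the brighter one. In batch 2 that probe gave -1.99.

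Retinoic acid against IL-1α differed between the batches for 4 of the 10 genes, where 8.91% of all genes did. Igfbp3 was 1.72 in batch 1 and 2.94 in batch 2 (adjusted p = 0.00837), Igfbp5 was 1.60 and 2.57 (adjusted p = 0.0217), Igfbp7 was 1.21 and 0.25 (adjusted p = 0.0196), and Igf2 was -0.68 and 0.07 (adjusted p = 0.0428). There were 2 arrays per treatment in each batch, and most of these calls rested on single arrays. The Igfbp3 difference between retinoic acid and IL-1α passed whichever array was left out (adjusted p of 0.00382 to 0.0467). The Igfbp5 call against untreated, by its brighter probe, passed only without untreated replicate 2 of batch 2 (adjusted p = 0.00665) and was lost without any other array (adjusted p of 0.0577 to 0.182). The Igfbp3 call for IL-1α against untreated was lost without any of the 4 untreated and IL-1α arrays of batch 1, IL-1α replicate 2 of batch 2 (adjusted p = 0.109) or untreated replicate 1 of batch 2 (adjusted p = 0.0511), and without the last of these arrays Igf1 and Igfbp7 passed in its place. The count of 4 genes for retinoic acid against IL-1α was 1 without either retinoic acid array of batch 1, IL-1α replicate 2 of batch 1 or retinoic acid replicate 2 of batch 2. It was 2 without IL-1α replicate 1 of batch 1, retinoic acid replicate 1 of batch 2 or IL-1α replicate 2 of batch 2.

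**Figure D3:**
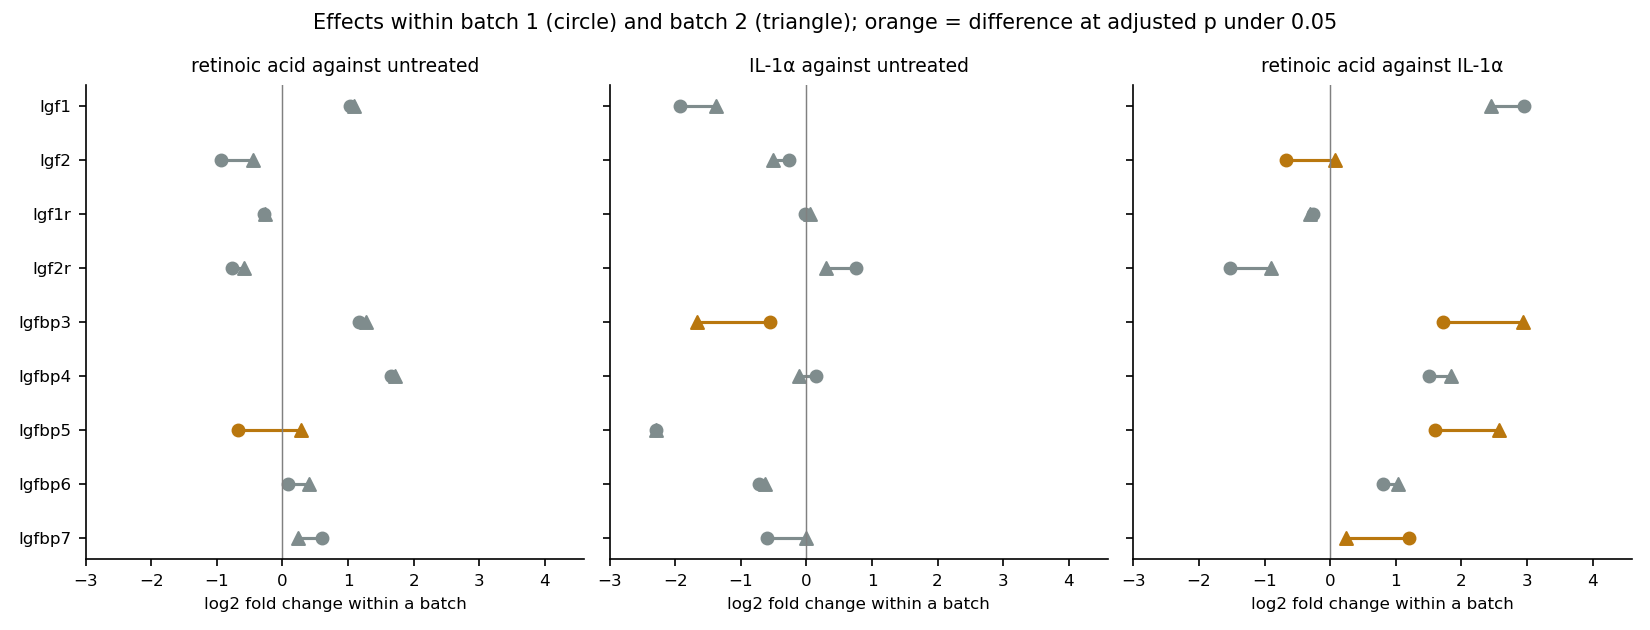
Log2 fold change within batch 1 (circles) and batch 2 (triangles) for the brightest kept probe of each gene but Igfbp2, which was at background in 2 treatments (vertical axis), in 3 comparisons, joined by a line that is orange where the difference between batches had an adjusted p under 0.05 from limma. For retinoic acid against untreated, the Igfbp5 symbols lie on both sides of 0, at -0.68 and 0.28, while those of Igfbp4 lie at 1.66 and 1.72.

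The genes whose pattern over the 12 arrays was most like that of a member were found by Pearson correlation after the mean of each batch was subtracted. This was done for the 5 genes that changed by at least 1 on the log2 scale with either treatment. The arrays share these treatments, so the correlations are a description. For Igf1 the closest were Gcap26, Mfap2, which encodes a microfibril protein, and Atpif1 (0.990, 0.988 and 0.986). For Igfbp2 they included B230312L03Rik and Inmt (0.998 for each), for Igfbp3 Golm1, Thsd4 and the chemokine gene Cxcl12 (0.987, 0.986 and 0.984), and for Igfbp4 Sox4, Gdpd5 and Ggtla1 (0.995, 0.995 and 0.994).

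For Igfbp5 the closest were Sdpr, Notch4 and Pecam1 (0.987, 0.984 and 0.982), and Notch4 and Pecam1 are genes of endothelial cells. All 7 endothelial markers were kept, and 4 of them fell with IL-1α, namely Pecam1, Cdh5, Emcn and Esam, while Kdr, Tek and Vwf did not pass. Their summed linear intensity was 2664 to 2967 untreated, 1213 to 1568 with IL-1α and 2687 to 3475 with retinoic acid, so the IL-1α arrays did not overlap the others. With retinoic acid Emcn was higher and Vwf lower than untreated, and the other 5 did not pass. Of 4 kept pericyte markers, 3 fell with IL-1α, while with retinoic acid 1 rose (Pdgfrb) and 2 fell (Rgs5 and Cspg4). Their sum was 3423 to 3852 untreated, 1742 to 2648 with IL-1α and 3892 to 4854 with retinoic acid. Myh11, which defines smooth muscle, was detected on no array. The part of these cells in the levels of Igfbp5 and the other genes was not tested. For 4 kept fibroblast markers the sum was 1193 to 4220 untreated, 606.8 to 1948 with IL-1α and 1243 to 3555 with retinoic acid, with all 4 lower with IL-1α, and with Col3a1, Lum and Thy1 lower and Pdgfra higher with retinoic acid. For 6 kept macrophage markers the sum was 1697 to 3091 untreated, 3739 to 6645 with IL-1α, where 2 were higher and 3 lower, and 2717 to 4952 with retinoic acid, where 4 were higher. With retinoic acid 5 of 7 neutrophil markers, 3 of 4 kept osteoblast markers, 3 of 5 hypertrophic chondrocyte markers and 2 of 2 kept adipocyte markers were lower than untreated and 1 hypertrophic marker was higher, while with IL-1α the lower counts were 0, 3, 3 and 2 and none was higher. No kept erythroid marker passed against untreated.

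The other genes of the pathway were taken from a list of 65, of which 63 had a probe and 47 were kept, while Irs2 and Irs4 were not matched. With retinoic acid, 11 of the 47 rose and 11 fell, and with IL-1α 10 rose and 8 fell. Over all genes, the shares given above were 18.6% higher and 18.1% lower with retinoic acid and 15.1% higher and 15.0% lower with IL-1α. Among proteases and their regulators, Htra1, a secreted serine protease that cuts matrix and binding proteins, rose with retinoic acid by 2.74 ± 0.11 SE (adjusted p = 1.67e-09 from limma) and was 0.24 with IL-1α (adjusted p = 0.117). Stc2, which encodes an inhibitor of the pappalysins, fell by 1.98 with retinoic acid and by 0.85 with IL-1α. Pappa and Pappa2, the pappalysins that cut Igfbp4 and Igfbp5, did not pass with either treatment, at 0.17 and -0.09 with retinoic acid and -0.10 and 0.06 with IL-1α. Pappa2 was detected on 3 untreated, 3 IL-1α and 1 retinoic acid arrays. Its signals lay near background, so its values do not show that it was unchanged. Stc1, the relative of Stc2, was 0.43 with retinoic acid and -0.76 with IL-1α, and did not pass in either. Retinoic acid against IL-1α passed for Stc1 (1.19, adjusted p = 0.00766 from limma). Stc1 was detected on only 2 arrays of each treatment, so these are not exact sizes. Igfbp1 was detected on no array, and Igfals, which encodes the third protein of the serum complex, was 0.04 and -0.04 and did not pass.

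Below the receptor, Irs1, the adaptor of the insulin and IGF-1 receptors, fell by 1.46 with retinoic acid and by 0.94 with IL-1α. Grb10, an adaptor that dampens these receptors, fell by 0.95 and by 0.96. Pik3r1, the regulatory subunit of PI3 kinase, rose by 1.24 and by 1.00, and Pik3r3, another regulatory subunit, rose with retinoic acid (adjusted p = 2.43e-06 from limma). Pik3r3 was detected on 4 retinoic acid arrays but on only 1 untreated and 1 IL-1α array, so the fitted rise of 1.18 is not an exact size and its value with IL-1α was mostly background. Deptor, an inhibitor of mTOR carried on the array as Depdc6, fell by 1.43 and by 0.61. Insr, the insulin receptor, carried on the array as D630014A15Rik, was -0.08 and -0.06 and did not pass.

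On the growth hormone side, which drives Igf1 in liver and other tissues, Ghr, the receptor, fell by 1.11 with retinoic acid and by 1.06 with IL-1α. Stat5a, a transcription factor below it, rose by 0.42 and by 1.24. The feedback inhibitors Cish and Socs3 rose, Cish by 1.76 with retinoic acid and 1.54 with IL-1α, and Socs3 by 0.99 and 1.55. Cish averaged 5.18 untreated, near background, and was detected on 3 untreated arrays, so its rises are not exact sizes. Socs2 was 0.38 with retinoic acid (adjusted p = 0.051 from limma) and -0.09 with IL-1α. H19, a noncoding RNA gene that shares an imprinted domain with Igf2, fell by 1.90 with IL-1α and by 0.74 with retinoic acid. Igf2as, the antisense gene of Igf2, was detected on no array.

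**Figure D4:**
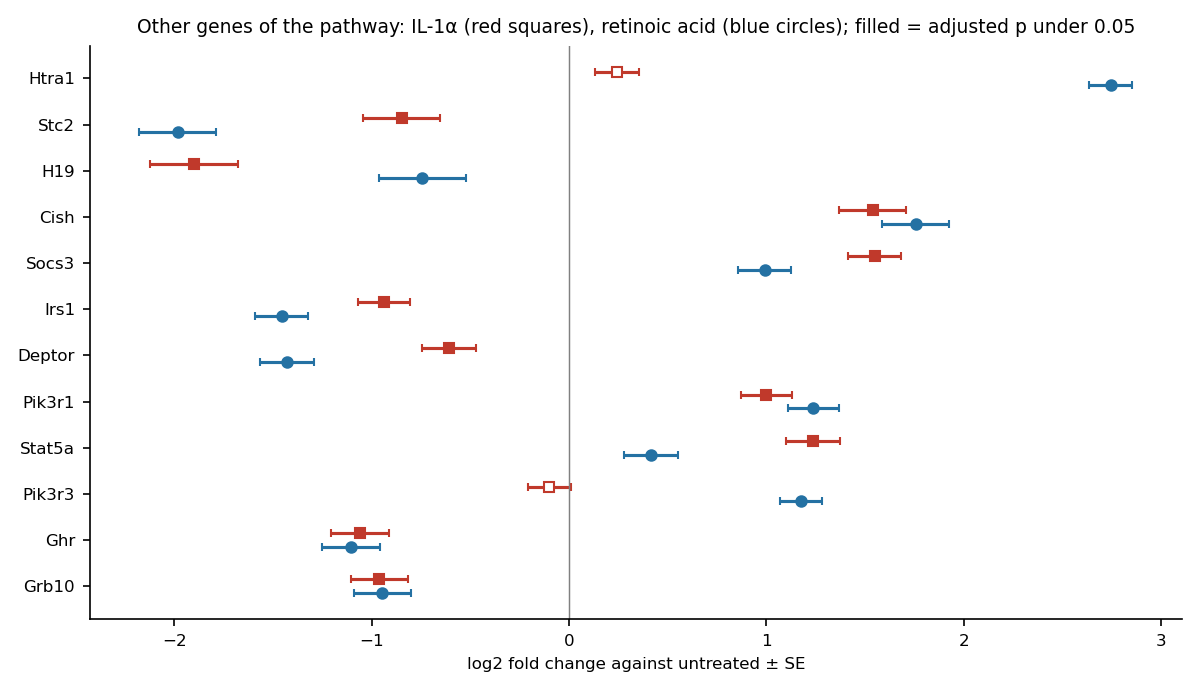
Log2 fold change against untreated with its SE (horizontal axis) of the 12 other genes of the pathway with the largest changes that passed the test (vertical axis), for IL-1α (red squares) and retinoic acid (blue circles), filled where the adjusted p from limma was under 0.05. Htra1 and Pik3r3 have open IL-1α symbols, and the values of Pik3r3 rest mostly on background outside retinoic acid. Cish, Socs3, Pik3r1 and Stat5a lie to the right for both treatments, and Cish was near background untreated.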

How the data were processed

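Intensities of 46632 probes on 12 Illumina bead arrays were deposited by the authors without background subtraction or normalization, with detection scores, fractions between 0 and 1 that rise with intensity, which were taken here as the complement of a detection p-value. Intensities were processed with neqc (offset 16) in limma 3.58.1 (R 4.3.3), as the methods name, and 18200 probes, detected on 4 or more arrays at p under 0.05, were kept. The linear model held treatment plus 1 factor, with 4 levels, that joined batch and replicate number. Further models tested treatment by batch, and batch with treatment. P-values were adjusted over all kept probes with the Benjamini-Hochberg method, with a threshold of 0.05. The functions were tested on simulated data. The number of arrays limits the precision. Quantile normalization assumes like intensity distributions on all arrays. A gene was represented by its brightest kept probe. Promoter windows and neighbours came from RefSeq tables of GRCm38.p6, and no probe or protein sequences were used. The 10 genes, the pathway and marker lists were chosen with earlier results of these data known. From the pathway list, the 12 genes with the largest called changes against untreated and a fixed set of IGF binding, receptor and feedback genes were named. For each member changed by at least 1, the 3 genes of most similar pattern were named, except 1 that is not reported here. The closing section gives the alternatives.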

Additional observations from a re-analysis of the deposited data

Results flagged for a closer look

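Of 50 groups of arrays examined for a single array far from the rest (Dixon's criterion at 95%), which chance meets in about 1 in 20, 2 met it. The untreated replicate 2 of batch 2 had 19485 detected probes, apart from the other 5 arrays of its batch. Igfbp2 on IL-1α replicate 2 of batch 2 had a log2 intensity of 4.71, where the other IL-1α arrays had 4.49 to 4.52, and all 4 were below the detection threshold.

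The treatment by batch term passed in 8 of 48 comparisons of the kept probes. As batch 2 minus batch 1 on the log2 scale, retinoic acid against untreated differed by 0.96 and 1.43 for the 2 probes of Igfbp5. IL-1α against untreated differed by -1.11 for Igfbp3 (ILMN_2727503). Retinoic acid against IL-1α differed by 1.22 for the same Igfbp3 probe, by 0.96 and 0.95 for the 2 probes of Igfbp5, by 0.75 for Igf2 and by -0.96 for Igfbp7. Line and batch cannot be told apart in any of them.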

How the results depend on the processing

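In 23 alternatives, 12 of which left out 1 array each, no called gene changed direction. Of 19 called differences of the 10 genes, 10 kept their call in every alternative that could be fitted. These include the differences of Igfbp2 with retinoic acid, against untreated and against IL-1α, which set detected arrays against background. The alternatives were no filter, detection on all 12 arrays, detection p under 0.01, an offset of 50, median scaling, normalization within each batch, no background correction, no replicate block with batch kept, no replicate block and no batch, array weights and the probe of largest variance. Igfbp2 is not kept where detection on all 12 arrays is required. The model held batch and replicate number as a block, as the methods describe, but the data gave little sign that the numbers pair the samples, since same-numbered samples correlated in their deviations at 0.0027 to 0.062 in batch 1 and -0.108 to 0.391 in batch 2. Without the replicate block and with batch kept, the counts were again 6 for retinoic acid, 5 for IL-1α and 8 between them. With neither the block nor batch in the model, 2 genes were called for retinoic acid against untreated (6 with both) and 2 for IL-1α against untreated (5 with both). Igf1, Igf2, Igf2r and Igfbp3 lost their calls with retinoic acid, and Igf2r, Igfbp3 and Igfbp6 with IL-1α. For retinoic acid against IL-1α, Igfbp6 and Igfbp7 lost theirs. Without block and batch, 2215, 1327 and 1984 probes were called of all 18200 for retinoic acid, IL-1α and their comparison, against 6436, 5334 and 5656. Normalization within each batch gave 2 genes whose retinoic acid effect against untreated differed between batches, Igfbp2 and Igfbp5, in place of 1. For retinoic acid against IL-1α it gave Igf2, Igf2r, Igfbp2, Igfbp3 and Igfbp7, without Igfbp5 (adjusted p = 0.0643 from limma). The Igfbp2 effects are set against background, so their differences between batches could hardly be measured. Leaving out 1 array at a time gave 0 to 1 such genes for retinoic acid, 0 to 2 for IL-1α and 1 to 5 for retinoic acid against IL-1α. No scaling moved the median of all genes by over 0.1. Differences below the lowest detected signal of an array, 4.86 to 5.48 on the log2 scale, could not be measured.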
